A study of Mus musculus with 24 samples.

Results

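B lineage transcription factors were described here as 10 genes, Pax5, Ebf1, Tcf3, Foxo1, Pou2af1, Pou2f2, Spib, Spi1, Ikzf1 and Ikzf3, picked by name from the 14106 genes of an RNA-seq count table. Each was found once, under its current symbol, and all 10 passed the filter on low counts that left 12024 genes for testing. The table held 3 Spt5-depleted libraries and 3 WT libraries of mouse splenic B cells stimulated with interleukin 4 and lipopolysaccharide. In the Spt5-depleted group the genotype was Supt5hFl/- Rosa26ERT2-cre/+, which pairs a floxed with a null copy of the Spt5 gene and adds a tamoxifen-inducible Cre recombinase made from the broadly active Rosa26 locus. In the WT group it was Rosa26ERT2-cre/+, the recombinase with neither Supt5h allele, so effects of the null allele and of the induced deletion cannot be told apart. Both groups received the drug: after 28 h of activation, 2 µM 4-hydroxytamoxifen was present for 32 h, so RNA was taken at 60 h. One label field has the cells as mature and another as immature. Nothing in the labels tells whether libraries came from separate animals or cultures, so a p-value here measures the spread between libraries only, and that spread may be technical. Spt5 belongs to DSIF, which associates with RNA polymerase II as it pauses and elongates, and the question was which mRNAs of activated B cells change when the Spt5 gene is targeted.

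A B cell is specified by a hierarchy of transcription factors. The E proteins encoded by Tcf3 act with FOXO1 and EBF1 in early progenitors, EBF1 activates Pax5, and PAX5 then holds the cell to the B lineage by activating B cell genes and repressing those of other lineages. In mature cells the octamer-binding factor OCT2 (Pou2f2) and its B cell coactivator OBF1 (Pou2af1) bind together at promoters and enhancers. PU.1 (Spi1) and Spi-B (Spib) are ETS factors that bind closely similar sites, and Ikaros (Ikzf1) and Aiolos (Ikzf3) are zinc finger factors that can pair with each other. Many of these genes are themselves controlled by large enhancers.

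Depth was 17306549 to 21441575 counts in the Spt5-depleted libraries and 23340978 to 25649611 in the WT libraries, with no overlap. The targeted gene itself, Supt5, was down to 189, 196 and 314 counts in Spt5-depleted libraries, against 3796, 3512 and 4666 in WT libraries (log2 fold change -3.94 ± 0.14 SE, edgeR quasi-likelihood adjusted p = 1.26e-10). Kdm5d, Uty, Eif2s3y and Ddx3y, genes of the Y chromosome, had 1111 to 3040 counts over the 3 depleted libraries and 1 to 3 over the 3 WT libraries, while Xist had 86 over the depleted and 46341 over the WT libraries. Every difference below is therefore also one between libraries with Y-linked mRNA and libraries with Xist RNA, and the 2 cannot be told apart. The B cell markers Cd79a, Cd79b and Ms4a1 were abundant in both groups, with 838, 1733 and 578 CPM (TMM-normalised counts scaled to a common library size) in depleted cells and 770.0, 1664 and 619 CPM in WT.

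The sequences before the starts of 4 members are shown because these members passed the test under every setting tried, Spib and Foxo1 as higher and Pou2af1 and Ikzf1 as lower. Each is the 250 bases before an annotated RefSeq start in GRCm38.p6, a later build than the mm9 of the counts, and is printed 5′ to 3′ along the gene's own strand. Spib is from chr7:44532072-44532321 on the minus strand, Foxo1 from chr3:52268087-52268336 on the plus strand, Pou2af1 from chr9:51213440-51213689 on the plus strand, and Ikzf1 from chr11:11685675-11685924 on the plus strand, the first of 2 starts listed for it. Capitals mark matches, on either strand, to any of 8 short motifs: the octamer ATTTGCAT, the ETS core GAGGAA, the Ikaros core TGGGAA, the E-box CAGGTG, the forkhead motif TGTTTAC, the EBF1 palindrome CCCNNGGG, the cyclic AMP response core TGACGT and the TATA motif TATATA. The motifs were picked after the members' values were known.
Spib: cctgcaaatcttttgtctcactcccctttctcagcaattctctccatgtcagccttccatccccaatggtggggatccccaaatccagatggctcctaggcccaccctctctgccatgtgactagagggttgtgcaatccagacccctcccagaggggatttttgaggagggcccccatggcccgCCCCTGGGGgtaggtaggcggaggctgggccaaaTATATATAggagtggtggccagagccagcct
Foxo1: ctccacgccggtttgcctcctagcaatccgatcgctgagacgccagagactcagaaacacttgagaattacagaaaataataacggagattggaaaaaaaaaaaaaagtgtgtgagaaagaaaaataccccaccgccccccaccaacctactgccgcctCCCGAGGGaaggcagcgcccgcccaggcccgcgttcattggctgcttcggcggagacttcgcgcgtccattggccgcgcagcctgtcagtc
Pou2af1: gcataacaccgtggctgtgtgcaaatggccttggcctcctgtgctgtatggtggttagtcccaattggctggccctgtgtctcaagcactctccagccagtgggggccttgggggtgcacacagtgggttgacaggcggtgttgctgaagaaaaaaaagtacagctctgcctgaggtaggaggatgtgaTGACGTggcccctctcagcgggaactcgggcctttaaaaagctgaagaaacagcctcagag
Ikzf1: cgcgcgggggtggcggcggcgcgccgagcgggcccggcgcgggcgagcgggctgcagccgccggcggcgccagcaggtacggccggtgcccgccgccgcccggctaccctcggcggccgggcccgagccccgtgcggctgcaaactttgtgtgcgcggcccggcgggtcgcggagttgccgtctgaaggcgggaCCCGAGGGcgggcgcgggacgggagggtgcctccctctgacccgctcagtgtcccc

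The EBF1 palindrome was in the windows of Spib, Foxo1 and Ikzf1, members that moved in opposite directions, and in 11.8% of 32851 windows of the same length. The Spib window held 2 overlapping matches to it, starting 65 and 64 bases before the start, and 2 overlapping matches to TATATA, a motif in 5.25% of all windows. The only match in the Pou2af1 window was TGACGT, starting 61 bases before the start, a motif in 6.47% of all windows. RefSeq windows were at hand for 8 of the 10 members, 10 windows in all. Among them the ETS core was in the window of Pou2f2 and that of the second start listed for Ebf1 (23.3% of all windows). The Ikaros core was in the same Ebf1 window (21.6%). The octamer, the E-box and the forkhead motif were in 0 of the 10 windows, and in 1.6%, 17.2% and 3.17% of all windows.

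Of the 10 members 3 rose in Spt5-depleted cells, Spib, Foxo1 and Spi1, 4 fell, Pou2af1, Ikzf1, Pou2f2 and Ikzf3, and Pax5, Ebf1 and Tcf3 did not pass (edgeR quasi-likelihood test, adjusted p under 0.05 over all tested genes). Among all tested genes 62.4% passed, 31.8% as higher and 30.6% as lower, so the members' share was close to the background. The values of the groups did not overlap for 6 of the 10 members, and for 67.5% of all tested genes. The median log2 fold change was -0.07 over the members and 0.005 over all tested genes, and the median size of the change was 0.36 and 0.44. Only Spib and Pou2af1 changed by at least 2-fold, as 17.5% of all tested genes did with an adjusted p under 0.05. The members were measured with 711 to 41133 counts per library. In bulk RNA, fewer cells of a type and less RNA per cell cannot be told apart. Read counts of different genes depend on transcript length, which was not at hand, so the members are not ordered by level.

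**Figure D1:**
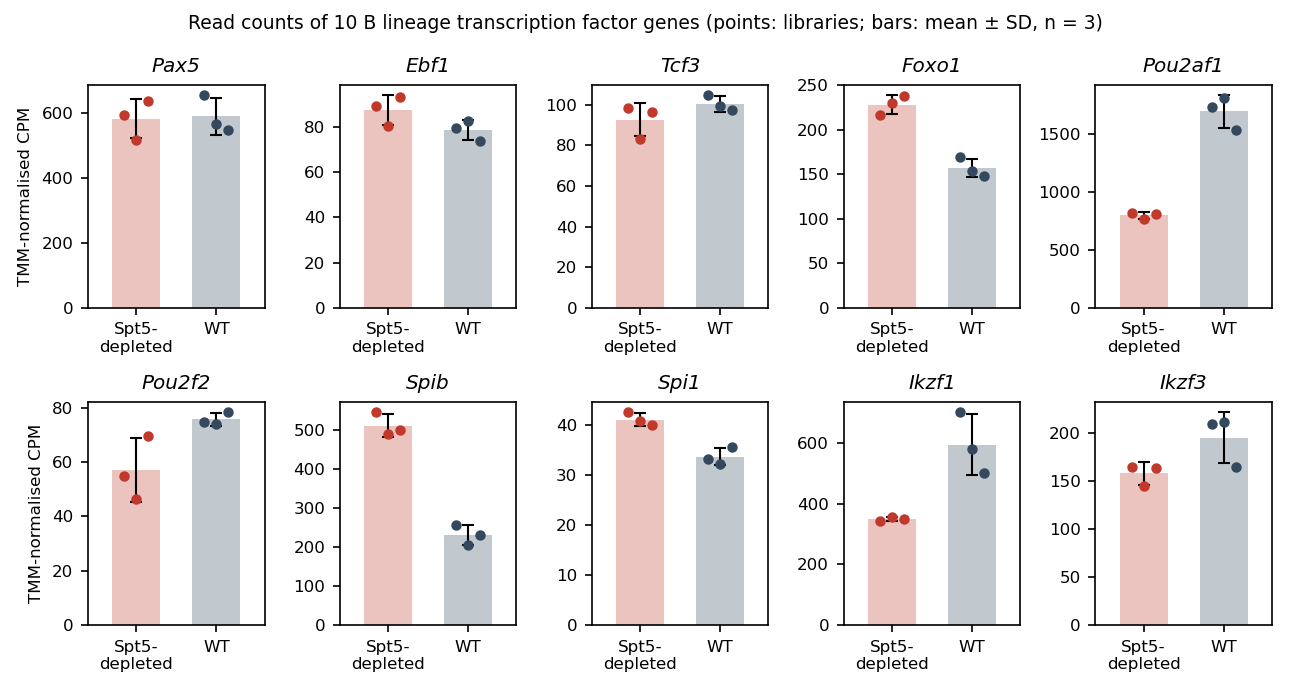
TMM-normalised CPM of the 10 members in each library, with Spt5-depleted libraries left of WT libraries; points are libraries, bars are means and whiskers are SDs (n = 3 each). Spib, Foxo1 and Spi1 lie wholly above WT and Pou2af1, Pou2f2 and Ikzf1 wholly below it, while the groups overlap for Pax5, Ebf1, Tcf3 and Ikzf3.

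Both octamer genes fell, with log2 fold changes of -1.08 for the coactivator and -0.41 for the DNA-binding factor. Pou2af1, which encodes OBF1, had 820.1, 764 and 808 CPM in the Spt5-depleted libraries, against 1732, 1805 and 1534 CPM in the WT libraries. Every depleted library was below every WT library. The means were 797 ± 29.6 CPM in depleted cells and 1690.4 ± 140.2 CPM in WT (SD, n = 3 each), 2.12-fold lower in depleted cells (log2 fold change -1.08 ± 0.09 SE, edgeR adjusted p = 1.47e-07), and 15.4% of all tested genes changed by more in either direction. Pou2f2, which encodes OCT2, had 54.9, 46.5 and 69.6 CPM in depleted libraries, against 74.8, 73.8 and 78.2 CPM in WT libraries. The depleted libraries spread widely, and the highest of them lay just under the lowest WT library. Its means were 57.0 ± 11.7 CPM in depleted cells and 75.6 ± 2.32 CPM in WT (SD, n = 3 each), with a log2 fold change of -0.41 ± 0.12 SE (edgeR adjusted p = 0.0107). This fall was not called with library totals alone (log2 fold change -0.25, adjusted p = 0.114) or without Spt5-depleted replicate 2 (-0.28, adjusted p = 0.0594). The name of Pou2f2 in the table carries a suffix that may mark an overlapping gene, so reads of a neighbour may be among its counts, and the counts do not separate its splice forms.

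Both ETS factor genes rose, by 1.15 (log2) for Spi-B and 0.29 for PU.1. Spib had 545, 489 and 499 CPM in the Spt5-depleted libraries, against 256, 206 and 229 CPM in the WT libraries. All depleted values were well above all WT values. The means were 511 ± 29.8 CPM in depleted cells and 230.2 ± 25.0 CPM in WT (SD, n = 3 each), 2.22-fold higher in depleted cells (log2 fold change 1.15 ± 0.10 SE, edgeR adjusted p = 1.32e-07), and 13.8% of tested genes changed by more. Spi1, which encodes PU.1, had 42.6, 40.8 and 39.98 CPM in depleted libraries, against 33.4, 32.3 and 35.6 CPM in WT libraries. Its groups did not overlap, and its replicates were tight in both groups. Spi1 averaged 41.1 ± 1.33 CPM in depleted cells and 33.7 ± 1.67 CPM in WT (SD, n = 3 each), a 1.22-fold rise (log2 fold change 0.29 ± 0.09 SE, edgeR adjusted p = 0.0125) that missed the threshold without Spt5-depleted replicate 1 (adjusted p = 0.0583) or without WT replicate 2 (adjusted p = 0.0510). PU.1 is also the main regulator of macrophages. Of all tested genes 31.8% rose and 30.6% fell. Of 8 tested macrophage and monocyte markers 5 rose, Csf1r, Cd14, Emr1, Itgam and Mpeg1, 1 fell, Cebpb, and Cd68 and Lyz2 did not pass, while 6 were higher and 1 lower with library totals alone or upper-quartile factors. Summed over the 11 listed markers, they had 108, 190.1 and 148.0 CPM in depleted libraries and 80.6, 97.2 and 108 CPM in WT libraries. Most of this sum was Mpeg1, with 99.3 CPM on average in depleted cells and 63.5 CPM in WT. The groups overlapped for Csf1r (1.16 CPM in depleted cells and 0.39 CPM in WT), Emr1 (9.46 and 4.13) and Itgam (3.42 and 2.04). They did not overlap for Cd14 and Mpeg1. The part of other cells in the rise of Spi1 was not tested.

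The Ikaros and Aiolos genes both fell, with log2 fold changes of -0.77 and -0.30. Ikzf1 had 341, 355 and 351 CPM in the Spt5-depleted libraries, against 700.1, 580.1 and 500.0 CPM in the WT libraries. The depleted libraries were close together, and the WT libraries were spread widely but all lay above them. The means were 349 ± 7.04 CPM in depleted cells and 593 ± 100.7 CPM in WT (SD, n = 3 each), 1.70-fold lower in depleted cells (log2 fold change -0.77 ± 0.11 SE, edgeR adjusted p = 2.50e-05). Ikzf3, which encodes Aiolos, had 165, 144 and 164 CPM in depleted libraries, against 209, 211 and 164 CPM in WT libraries. WT replicate 3 was as low as the depleted libraries, so the groups overlapped. Its means were 158 ± 11.5 CPM in depleted cells and 195 ± 26.6 CPM in WT (SD, n = 3 each), with a log2 fold change of -0.30 ± 0.10 SE (edgeR adjusted p = 0.0194). That call was lost without Spt5-depleted replicate 2 (adjusted p = 0.111), without WT replicate 1 (0.0556), without WT replicate 2 (0.0743) and with library totals alone (log2 fold change -0.14, adjusted p = 0.237). Both factors are also made by T cells. Of all tested genes 30.6% fell. Of 13 tested T cell markers 1 fell, Lck, whose name carries the overlap suffix (log2 fold change -0.89, adjusted p = 5.24e-05), and 12 did not pass. Their summed level was 178 to 201 CPM in depleted libraries and 216 to 239.5 CPM in WT, of which Thy1 gave 158 CPM on average in depleted cells and 175 CPM in WT, while Cd3e, a chain of the T cell receptor complex, had 2.16 CPM in depleted cells and 2.70 CPM in WT. The part of T cells in the falls of Ikzf1 and Ikzf3 was not tested.

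PAX5 and EBF1, the factors that define the lineage, did not pass. Pax5 had 596, 518 and 637 CPM in the Spt5-depleted libraries, against 657, 566 and 549 CPM in the WT libraries. The groups overlapped. Its means were 584 ± 60.5 CPM in depleted cells and 591 ± 57.7 CPM in WT (SD, n = 3 each), with a log2 fold change of -0.02 ± 0.10 SE (edgeR adjusted p = 0.892). The 95% interval of the ratio of depleted to WT ran from 0.852 to 1.15. Its sign was positive with library totals alone (0.14, adjusted p = 0.227), without Spt5-depleted replicate 2 (0.06, adjusted p = 0.669) and without WT replicate 1 (0.06, adjusted p = 0.618). Ebf1 had 89.2, 80.3 and 93.0 CPM in depleted libraries, against 79.3, 82.7 and 73.7 CPM in WT libraries. Of the depleted libraries, replicates 1 and 3 were above all WT libraries and replicate 2 was within their range. The means were 87.5 ± 6.50 CPM in depleted cells and 78.6 ± 4.53 CPM in WT (SD, n = 3 each), with a log2 fold change of 0.16 ± 0.09 SE (edgeR adjusted p = 0.143) and a 95% interval of the ratio from 0.976 to 1.27. Ebf1 was called higher with library totals alone (log2 fold change 0.32, adjusted p = 0.00758).

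Of the early regulators Foxo1 rose and Tcf3 did not pass. Foxo1, a forkhead factor that PI3 kinase signalling keeps out of the nucleus, had 217, 229.7 and 238 CPM in the Spt5-depleted libraries, against 169, 154 and 148.5 CPM in the WT libraries. Every depleted library was above every WT library. The means were 228 ± 10.6 CPM in depleted cells and 157 ± 10.6 CPM in WT (SD, n = 3 each), 1.45-fold higher in depleted cells (log2 fold change 0.54 ± 0.09 SE, edgeR adjusted p = 7.28e-05). Tcf3 had 98.4, 83.2 and 96.2 CPM in depleted libraries, against 105, 99.2 and 97.3 CPM in WT libraries. Its groups overlapped, with depleted replicate 2 apart below the rest. The means were 92.6 ± 8.19 CPM in depleted cells and 100.4 ± 3.84 CPM in WT (SD, n = 3 each), with a log2 fold change of -0.12 ± 0.09 SE (edgeR adjusted p = 0.270), a value that was 0.04 with library totals alone (adjusted p = 0.698). The counts do not separate the splice forms of Tcf3. Of the related E protein genes neither passed, Tcf4 with -0.07 (log2, adjusted p = 0.560) nor Tcf12 with 0.07 (adjusted p = 0.623). Of the ID proteins, which hold E proteins off DNA, Id2 had 152 ± 12.6 CPM in depleted cells and 32.7 ± 5.08 CPM in WT (SD, n = 3 each; log2 fold change 2.22, adjusted p = 1.01e-09), and Id3 had 14.6 ± 0.88 CPM in depleted cells and 24.5 ± 1.45 CPM in WT (-0.74, adjusted p = 2.31e-05).

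**Figure D2:**
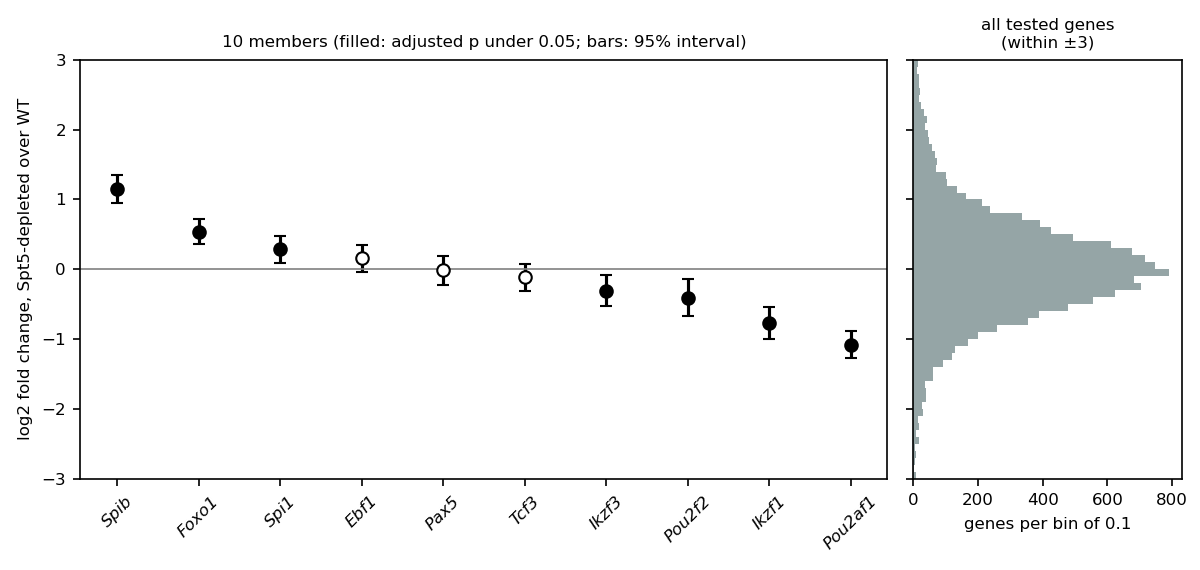
Log2 fold change of each member, Spt5-depleted over WT, with its 95% interval (left; filled points passed at an adjusted p under 0.05), beside the distribution of log2 fold changes of all tested genes between -3 and 3 (right, genes per bin). Spib (1.15) and Pou2af1 (-1.08) lie in the flanks of the distribution, and Pax5 (-0.02) lies at its centre.

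Within each group 1 library was low for most members. Spt5-depleted replicate 2 held the lowest of the depleted values for 7 of the 10 members, Pax5, Ebf1, Pou2af1, Pou2f2, Spib, Ikzf3 and Tcf3. WT replicate 3 held the lowest WT value for 7, Pax5, Ebf1, Pou2af1, Ikzf1, Ikzf3, Tcf3 and Foxo1. How often these libraries were lowest over all tested genes was not counted, so this cannot be called a trait of the members. Depleted replicate 2 also had the lowest summed CPM of other B cell transcription factors (5179, against 5360 and 5543). WT replicate 3 had the lowest of WT (5631, against 6381 and 6536). B cell markers summed lowest in depleted replicate 2, but highest in WT replicate 3. The SD was 2.02% to 20.6% of the mean in depleted cells, lowest for Ikzf1 and highest for Pou2f2, and 3.07% to 17.0% in WT, lowest for Pou2f2 and highest for Ikzf1.

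The ratio of a pair of members within a library does not depend on how libraries are scaled, and gene length cancels when groups are compared. The log2 ratio of Spib to Spi1 counts was 3.68, 3.58 and 3.64 in the Spt5-depleted libraries and 2.94, 2.67 and 2.69 in the WT libraries. The balance of the ETS pair was thus shifted to Spib by 0.87 on the log2 scale, with no overlap (exact permutation test, two-sided, p = 0.10, adjusted over 5 pairs 0.10, the smallest that 3 against 3 libraries allow). The ratio of Ikzf3 to Ikzf1 was -1.15 ± 0.13 in depleted cells and -1.60 ± 0.14 in WT, and that of Pou2af1 to Pou2f2 was 3.83 ± 0.26 in depleted cells and 4.48 ± 0.17 in WT (SD, n = 3 each; exact permutation p = 0.10 for both). Tcf3 to Foxo1 stood at -1.30 ± 0.16 in depleted cells and -0.64 ± 0.04 in WT, and Ebf1 to Pax5 at -2.74 ± 0.04 in depleted cells and -2.91 ± 0.14 in WT (SD, n = 3 each; exact permutation p = 0.10 for both). For Ebf1 to Pax5 the lowest depleted library and the highest WT library both stood at -2.78, so that pair was barely apart, and with a pseudocount of 0.5 or 2 its exact permutation p was 0.20.

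**Figure D3:**
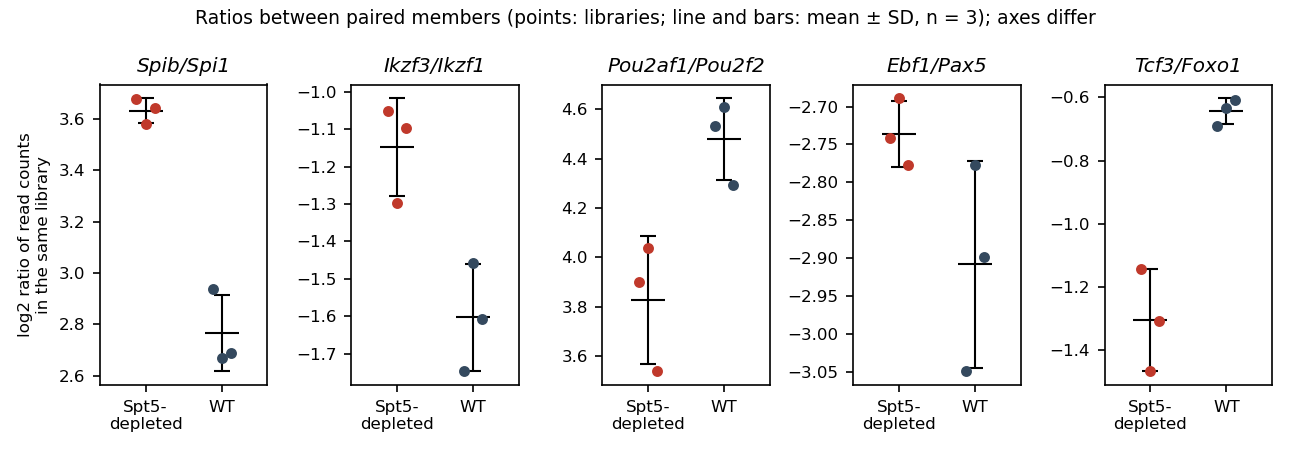
Log2 ratio of the read counts of 2 members in the same library, for 5 pairs, with Spt5-depleted libraries left of WT libraries; points are libraries, lines and whiskers are mean and SD (n = 3 each), and the vertical axes differ. The Spib/Spi1 ratio is higher in depleted libraries (mean 3.63 and 2.77 in WT), and the Pou2af1/Pou2f2 and Tcf3/Foxo1 ratios are lower.

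The scaling of libraries bears on the small changes. With library totals alone the median change over all genes was 0.164 (log2), against 0.005 with TMM, and 64.8% of calls were higher, against 50.9%. The members then counted 4 higher, with Ebf1 added, and 2 lower, Pou2af1 and Ikzf1, and their median was 0.09. Pou2af1, Ikzf1, Spib and Foxo1 passed in the same direction under all 15 alternatives, with log2 fold changes of -1.15 to -0.92, -0.88 to -0.61, 1.07 to 1.31 and 0.50 to 0.70. Abundant genes tended to be lower in these libraries. Of the 578 genes with a mean above 300 CPM 50.7% fell and 20.2% rose, with a median of -0.24. Of these genes 42 had a lower log2 fold change than Pou2af1, and 9 had a higher one than Spib.

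**Figure D4:**
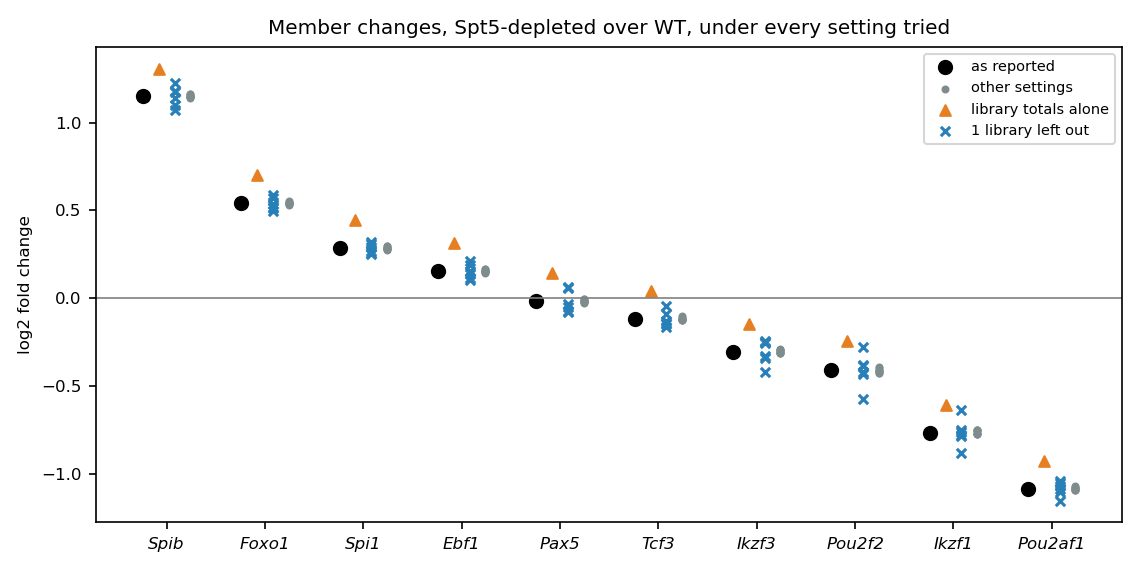
Log2 fold change of each member, Spt5-depleted over WT, as reported (black), with library totals alone (orange triangles), with 1 library left out (blue crosses) and under the other settings (grey). Library totals alone move every member up by about the same step, which takes Pax5 to 0.14 and Tcf3 to 0.04, and leaving out 1 library takes Pax5 to 0.06.

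The wider set of transcription factors of B cells moved both ways. Beside this set and the lists below, 31.8% of all tested genes were higher and 30.6% lower. Of 39 tested genes of the set 15 rose, 11 fell and 13 did not pass, with a median log2 fold change of 0.07 (0.23 with library totals alone, where 18 were higher and 11 lower). The falls with the smallest p were those of Irf8, an interferon regulatory factor that binds DNA with PU.1, with 138 ± 7.40 CPM in depleted cells and 396 ± 22.7 CPM in WT (SD, n = 3 each; log2 fold change -1.52, adjusted p = 3.17e-09), of Bach2, a repressor of plasma cell differentiation (-1.31, adjusted p = 5.22e-08), and of Mef2c, a target of B cell receptor signalling (-1.12, adjusted p = 1.95e-07). The Bach2 row carries the overlap suffix. The rises with the smallest p were those of Id2, given above, of Foxo4, a forkhead factor related to FOXO1, with 26.2 ± 1.67 CPM in depleted cells and 8.72 ± 0.27 CPM in WT (SD, n = 3 each; log2 fold change 1.59, adjusted p = 1.74e-08), and of Nfatc1, a calcium-dependent factor (0.89, adjusted p = 1.08e-06). Relatives of members went with or against them. Foxo3 rose with Foxo1 and Foxo4 (0.95, adjusted p = 5.15e-06). Ikzf5, an Ikaros relative, rose (0.43, adjusted p = 0.00354) while Ikzf1 fell, and Ikzf2 had 0.38 CPM in depleted cells and 0.63 CPM in WT and did not pass (adjusted p = 0.304). Pou2f1, which encodes the widely expressed OCT1, had 60.6 CPM in depleted cells and 47.0 CPM in WT and did not pass (0.37, adjusted p = 0.0852). Foxo3, Ikzf5, Ikzf2 and Pou2f1 were picked for their kinship to members, after their values were seen.

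Genes known to be controlled by the members were taken in lists that overlap each other and in part the members. Genes activated by PAX5 were lower more often than higher, and Pax5 itself did not pass. Of 19 tested 10 fell and 3 rose, with a median log2 fold change of -0.30 (-0.14 with library totals alone, with 9 lower and 6 higher). Fcer2a, the low-affinity IgE receptor, had 266 ± 1.58 CPM in depleted cells and 790 ± 105 CPM in WT (SD, n = 3 each; -1.57, adjusted p = 9.77e-09). Irf8, above, was also among the falls with the smallest p. Besides Spib, Cr2, a complement receptor (1.05, adjusted p = 4.81e-06), and Lef1 (0.36, adjusted p = 0.0179) rose, the last with its call lost without Spt5-depleted replicate 3 or WT replicate 2 (largest adjusted p = 0.0962). Of 11 tested genes that PAX5 represses 3 rose, Csf1r, Fcer1g (log2 fold change 1.18) and Ccl3 (0.67), and 3 fell, Emb, Lmo2 and Xbp1 (-0.94, -0.71 and -0.70). Csf1r, another name with the overlap suffix, is also a macrophage marker, with 1.16 CPM in depleted cells and 0.39 CPM in WT (adjusted p = 0.00639), and Fcer1g is made by myeloid cells too.

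Of 10 tested EBF1 targets 3 fell, Pou2af1 and Traf5 among them, and 1 rose, Cd40 (0.38, adjusted p = 0.00456), with a median of 0.02. Their share of falls was close to the 30.6% of all tested genes. The fall of Traf5 (-0.37, adjusted p = 0.0266) lost its call without Spt5-depleted replicate 1 or 3, without WT replicate 2 or 3 (largest adjusted p = 0.0989) and with library totals alone, where 5 EBF1 targets were higher and 2 lower. Of 8 tested targets of OCT2 and OBF1 4 fell and 1 rose (median -0.69, and -0.53 with library totals alone with the same counts). Kcnn4, a potassium channel, had 12.1 ± 1.49 CPM in depleted cells and 42.3 ± 4.82 CPM in WT (SD, n = 3 each; -1.81, adjusted p = 1.32e-08). Cd36, a scavenger receptor, and Il6, the cytokine, fell with it (-1.05 and -1.36, adjusted p = 3.17e-07 and 5.19e-07), and Spib, itself on this list, was the 1 that rose.

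Of all tested genes 30.6% fell and 31.8% rose, and of the 578 above 300 CPM 50.7% fell and 20.2% rose. Of 12 tested targets of PU.1 and Spi-B 9 fell and 0 rose (median -0.74), while Spib and Spi1 rose. With library totals alone 8 fell, 2 rose and the median was -0.58. With upper-quartile or DESeq2 factors 0 rose. Among these genes Nfkb1, a subunit of NF-kB, had 379 ± 0.91 CPM in depleted cells and 1178 ± 44.0 CPM in WT (SD, n = 3 each; -1.64, adjusted p = 1.01e-09), and Cd22, an inhibitory receptor, had 207 ± 14.2 CPM in depleted cells and 579 ± 37.4 CPM in WT (SD, n = 3 each; -1.48, adjusted p = 5.62e-09). Bach2, above, completes the 3 with the smallest p, and Cd79a, Cd79b and Syk did not pass. Of 3 tested Ikaros family targets Hes1 rose (0.73, adjusted p = 0.00344) and Ccnd3, a cyclin, and Ctnnd1 fell (both -0.54, adjusted p = 6.09e-05 and 0.00173).

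Of 10 tested E protein targets 4 rose and 2 fell (median 0.14). With library totals alone 7 rose and 2 fell (median 0.30). Besides Foxo1, Socs1, a brake on cytokine signalling, and Cdkn1a, a cell cycle inhibitor, were the rises with the smallest p (1.24 and 0.48, adjusted p = 1.77e-06 and 0.000221), and Gfi1b was among the falls (-1.81, adjusted p = 0.00215) from a low level, with 0.23 CPM in depleted cells and 0.81 CPM in WT. FOXO1 targets divided, with 9 of 18 higher and 7 lower (median 0.43, and 0.59 with library totals alone with 9 higher and 6 lower). Ccr7, a homing receptor, had 661 ± 35.9 CPM in depleted cells and 192 ± 26.2 CPM in WT (SD, n = 3 each; 1.79, adjusted p = 3.90e-09), and Cdkn1b, a cell cycle inhibitor, and Bcl6, the germinal centre factor, rose with it (0.86 and 0.83, adjusted p = 6.05e-06 and 1.38e-05). Blnk, an adaptor of B cell receptor signalling, had 514 ± 3.47 CPM in depleted cells and 858.5 ± 34.0 CPM in WT (SD, n = 3 each; -0.74, adjusted p = 2.23e-06) and was among the genes that fell.

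**Figure D5:**
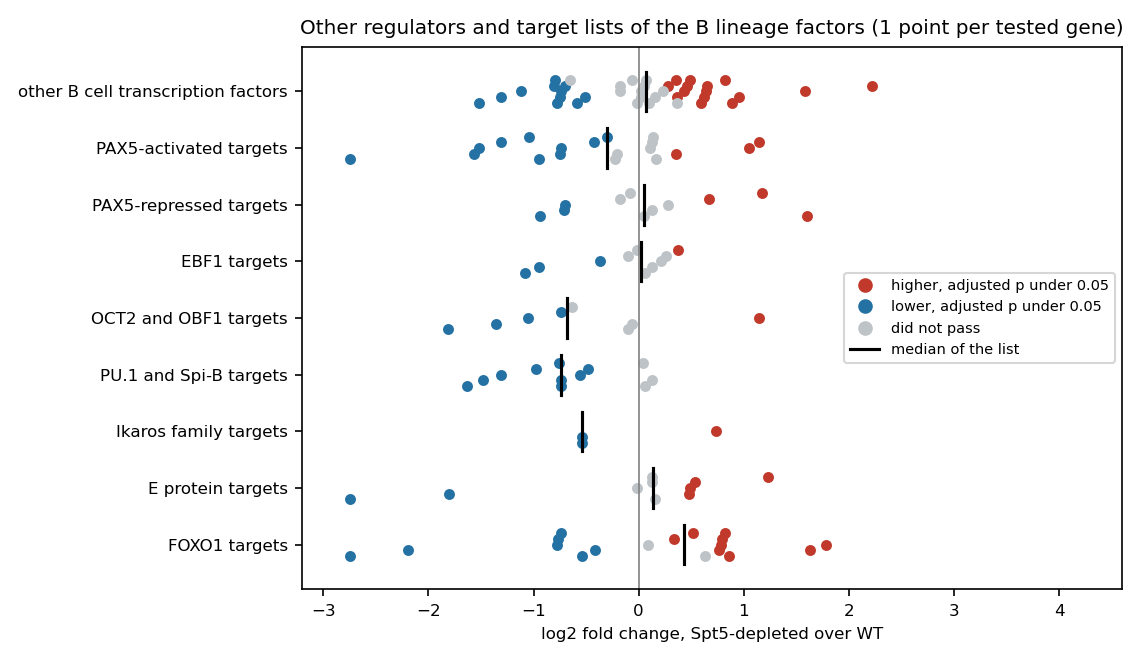
Log2 fold change, Spt5-depleted over WT, of each tested gene of the list of other B cell transcription factors and of 8 lists of genes controlled by the members (red higher, blue lower at an adjusted p under 0.05, grey did not pass; vertical lines are list medians). PU.1 and Spi-B targets lie to the left (median -0.74), FOXO1 targets are split (median 0.43), and the lists share genes.

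Markers of plasma cells, which OBF1 and Aiolos help to form, went both ways. Beside these and the other markers below, 31.8% of all tested genes were higher and 30.6% lower. Of 10 tested plasma cell markers 4 fell, 2 rose and 4 did not pass, and the median was -0.20 (-0.04 with library totals alone, where 3 were higher and 4 lower). Creld2 (-1.25), Mzb1 (-0.80) and Slamf7 (-0.74) were the falls with the smallest p, while Sdc1, the defining surface marker, and Irf4 rose (0.64 and 0.37). Summed over 10 genes these markers had 3494 to 3734 CPM in depleted libraries and 4487 to 6135 CPM in WT. The sum was lower in depleted libraries although the genes were split, and much of it came from Xbp1, with 893 CPM in depleted cells and 1454 CPM in WT, and Mzb1, with 853 CPM in depleted cells and 1484 CPM in WT. The part of plasma cells in the fall of Pou2af1 was not tested. Of the other cell types, 6 dendritic cell markers were tested, of which Xcr1 and Zbtb46 rose and Batf3 fell (summed over 8 genes, 158 to 173 CPM in depleted libraries and 153 to 207 CPM in WT). The 7 listed natural killer cell markers summed to 7.92 to 14.0 CPM in depleted libraries and 12.6 to 19.5 CPM in WT, the 5 neutrophil markers to 2.07 to 5.43 CPM in depleted libraries and 2.04 to 2.11 CPM in WT, and the 6 markers of red cells and platelets to 2.07 to 2.86 CPM in depleted libraries and 1.35 to 1.77 CPM in WT. Of 10 B cell markers 1 rose, Fcrla, 3 fell, Cd22 and Cd37 among them, and 6 did not pass (6 higher and 3 lower with library totals alone), and they summed to 12610 to 14780 CPM in depleted libraries and 12490 to 13430 CPM in WT.

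Genes whose pattern over the 6 libraries was most like that of a member were found by the distance between log2 CPM values centred on their means, among 9244 genes averaging 5 CPM or more. Nearest to Pou2af1 were Birc3, Cyth4 and Casc4, at distances of 0.12 to 0.14. Nearest to Pou2f2 were Taf8, Sbno2 and Cdk16 (0.15 to 0.19), and to Ikzf3 Dnajc12, Zmiz1 and Nedd9 (0.12 to 0.16). Ikzf1 was closest to Prkd3 (0.05), then to Dennd4a and Mier1 (0.10 and 0.12). Spib was closest to Tmem223, Tmem127 and Mknk2 (0.10 to 0.12), Spi1 to Mtfr1l, Ndufa10 and Tmem109 (0.05 to 0.06), and Foxo1 to Angel2, Cep128 and Cep68 (0.08 to 0.09). Since 2 groups of 3 libraries set most of each pattern, this likeness is largely one of fold change.

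The authors' deposited table gave the 10 members the same directions and the same 7 calls at an adjusted p under 0.05. Its log2 fold changes lay within 0.012 of those given here, with the authors' deposited table at 1.14 for Spib and -1.09 for Pou2af1.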

How the data were processed

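The data were poly(A) RNA-seq libraries, prepared from Trizol-extracted RNA with the Lexogen SENSE kit per the labels' protocols; 18 samples of other assays were not analysed here. The submitters' processing notes name TopHat, Bowtie2 2.1.0, cutadapt 1.10, featureCounts 1.5.0-p1 and DESeq2 1.10.1 with build mm9, without roles; annotation and strand setting are not stated in what was at hand. The authors deposited whole read counts per gene, not normalised, with their own log2 fold change and adjusted p-value. Every listed gene has at least 10 counts over the 6 libraries. Names were taken up to their suffix, and 2005 carry an overlap suffix.

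Tests used edgeR 4.0.16 in R 4.3.3 (filterByExpr, TMM, robust quasi-likelihood F test, two-sided, Benjamini-Hochberg over 12024 genes, threshold 0.05), first tried on simulated data. Few genes were changed in that simulation, so it does not bear on how TMM acts when most genes pass. TMM takes most genes as unchanged, so a shift of total mRNA per cell stays hidden. SEs come from the F statistic. Replicates differed by more than sampling noise. Chi-square per degree of freedom was 6.13 to 10.2 between depleted replicates and 26.4 to 31.2 between WT replicates. The fit gave each gene a single estimate of spread for both groups. Alternatives were other size factors (DESeq2, upper quartile, library totals), no filter or a 5 CPM filter, DESeq2 1.42.0, limma-voom 3.58.1, a replicate block, a 0.01 threshold, and each library left out; member ratios were recomputed with pseudocounts of 0.5 and 2. The members and lists were chosen with earlier results of these data known. Named from each list are up to 3 higher and 3 lower genes with the smallest p, and others where stated; some genes that this rule names are counted in their lists but not reported here. Sequences are RefSeq's, GRCm38.p6, matched by symbol.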

Additional observations from a re-analysis of the deposited data

How the results depend on the processing

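The count of members that fell, 4 as reported, was 2 with library totals alone and 2 at an adjusted p under 0.01, and 2 to 4 when 1 library was left out. The fit to library totals turned the signs of Pax5 (log2 fold change 0.14) and Tcf3 (log2 fold change 0.042). Leaving out 1 library gave log2 fold changes of Pax5 from -0.079 to 0.061. At an adjusted p under 0.01 the calls of Spi1, Pou2f2 and Ikzf3 were lost by the change of threshold itself. The causes of the other changes were not tested. Over the 15 alternatives 3000 to 4962 genes were higher and 2694 to 3867 lower. The 3000 came with the 5 CPM filter and the 3867 with no filter, so these counts are out of different numbers of tested genes. The fit with the replicate number as a block gave 3755 higher and 3614 lower genes and 3 higher and 4 lower members, and changed no member's call. Libraries with the same number showed no shared deviation (correlations 0.01, -0.08 and -0.09). With 3 libraries per group this cannot tell whether equal numbers mark a shared batch. The 5 within-library ratios kept their direction under all 9 alternatives each, the paired sign-flip test included, but this was fixed beforehand and adds no support. The groups did not overlap for any pair, so leaving out 1 library cannot reverse a direction. Pairing leaves the mean difference the same, and small pseudocounts barely alter such counts. Only the size could vary, from 0.82 to 0.95 (log2) for Spib/Spi1 and from 0.10 to 0.24 for Ebf1/Pax5. The permutation tests of 3 against 3 libraries cannot reach the threshold. Counts of at least 711 per member and library leave little counting error, and the number of libraries limits the precision.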
